A study of Rattus norvegicus with 45 samples.

Results

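Ucp2 and Ucp3 encode uncoupling proteins, members of the family of carriers that sit in the inner mitochondrial membrane. They were followed here in 2 rat skeletal muscles, the gastrocnemius, which is mixed with mostly fast fibres, and the soleus, which is mostly slow. The pair was chosen by gene symbol, because in earlier results of these arrays the 2 genes moved in opposite directions at the highest drug dose, and every probe set annotated to either symbol was taken. That gave 3 probe sets of the 31042 that are not array controls, standing for 2 of the 11684 genes tested: 1368669_at for Ucp2, and 1382958_at and 1387681_at for Ucp3. All 3 passed the filter on low signal. The Ucp3 values below are those of 1382958_at, the probe set of higher mean signal, unless the other is named.

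The animals were female SD rats given cerivastatin, a cholesterol-lowering statin, or its methylcellulose vehicle over 14 days, and some also ran on a treadmill (speed 20 m/min, 5 days a week, 20 min each time). The gastrocnemius groups covered vehicle and doses of 0.1, 0.5 and 1.0 mg/kg/day, the soleus groups vehicle and the top dose, and each existed in unexercised and exercised form. Of these 12 groups, 9 had 4 arrays and 3 had 3 arrays, so that 30 arrays were gastrocnemius and 15 soleus, and the study describes the replicates as biological. Neither a genotype nor an age was given in the sources used here, and every group received the vehicle or the drug in it. The study asked what cerivastatin does to muscle, what exercise adds, and why fibre types differ in sensitivity to statins.

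Mitochondria make ATP by letting protons flow back across their inner membrane through ATP synthase. Ucp1, the founding uncoupling protein, makes brown fat mitochondria leak protons and give heat. Ucp2 and Ucp3 resemble it in sequence but are not heat-producing proteins in the same sense, and their transport functions are still debated. Ucp2 is found in many tissues and is abundant in cells of the immune system, including macrophages. Ucp3 is found mainly in skeletal muscle, in fast fibres more than in slow ones, and its RNA is known to rise with fasting and with fatty acids through the peroxisome proliferator-activated receptors (PPARs). A muscle sample holds fibres, fat, vessels and immune cells together, so in these data a smaller number of cells of a type and less RNA per cell cannot be told apart.

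The 2 genes lie next to each other on the same strand of chromosome 1 in the RefSeq gene table of rat build GRCr8, with Ucp3 first. The promoter windows are shown as a description of the 2 neighbouring genes. Whether they have a part in the opposite movement was not tested. Each window runs from 250 bases before the RefSeq start to 50 after it, at chr1:164227660-164227959 for Ucp3 and chr1:164251123-164251422 for Ucp2, both on the plus strand. Capitals mark every match, on either strand, to the E-box CANNTG, which myogenic factors such as MyoD can bind, and to AGGTCA, the half-site of many nuclear receptors, PPARs and thyroid hormone receptors among them.
Ucp3: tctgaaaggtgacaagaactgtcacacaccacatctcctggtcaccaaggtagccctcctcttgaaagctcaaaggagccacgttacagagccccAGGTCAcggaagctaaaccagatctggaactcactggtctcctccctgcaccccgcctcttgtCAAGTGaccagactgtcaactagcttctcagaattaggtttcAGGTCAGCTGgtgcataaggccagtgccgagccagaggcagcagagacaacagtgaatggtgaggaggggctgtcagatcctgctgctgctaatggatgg
Ucp2: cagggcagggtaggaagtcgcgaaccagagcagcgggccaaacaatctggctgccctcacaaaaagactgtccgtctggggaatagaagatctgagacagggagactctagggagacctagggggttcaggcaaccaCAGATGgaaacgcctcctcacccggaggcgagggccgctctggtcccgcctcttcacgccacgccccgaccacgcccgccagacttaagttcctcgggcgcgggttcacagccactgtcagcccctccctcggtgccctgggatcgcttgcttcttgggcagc
The Ucp3 window held 2 AGGTCA matches and 2 E-box matches, and the match of each kind nearest the start overlapped the other. The Ucp2 window held 1 E-box match and 0 AGGTCA matches. Of all 33469 RefSeq promoter windows of 300 bases, 72.1% held an E-box match and 16.2% held AGGTCA. Neither window held the GC box GGGCGG, the CCAAT box CCAAT or the TATA box TATAAA, which 33.1%, 37.5% and 14.2% of windows held. The Ucp2 window was richer in G and C, at 63.3% with 19 CpG pairs, than the Ucp3 window, at 54.0% with 4 CpG pairs, where the median over all windows was 51.7% and 7 pairs. These matches describe the letters only, and no binding was measured.

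At 1.0 mg/kg/day, Ucp2 was higher and Ucp3 lower in gastrocnemius than in vehicle rats. Both mean gaps were wider in rats that ran, but for Ucp2 this rested mostly on 1 array, since without the third unexercised high-dose array its gap was 2.55 on the log2 scale in unexercised against 2.70 in exercised rats. Because this contrast is why the pair was chosen, its values are given as a description with no test. Here and below, whether the arrays of 2 groups overlap is also only a description. The share of all probe sets without overlap was not counted. The fitted model is limma's on log2(signal + 12.4), and ± after a log2 difference is its SE. With p-values adjusted by the Benjamini-Hochberg method to a threshold of 0.05, 9.5% of all 21729 probe sets were called at this dose in unexercised rats and 43.4% in exercised rats.

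In unexercised vehicle gastrocnemius the Ucp2 signal was 541, 672, 389.5 and 544 in the 4 arrays. At 1.0 mg/kg/day it was 2830, 3516 and 665 in the 3 arrays. The first pair of treated arrays lay above all vehicle arrays, and the third lay inside the vehicle range. The difference was 1.81 ± 0.44 on the log2 scale, or 3.51-fold, and 1.36 to 2.55 with any 1 array left out. In exercised rats the Ucp2 signal was 638, 375, 487 and 609 with vehicle, and 2117, 3709, 3191 and 5463 at 1.0 mg/kg/day. Here every treated array was above every vehicle array. The difference was 2.70 ± 0.41 on the log2 scale, or 6.50-fold.

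Ucp3 in unexercised vehicle gastrocnemius had a signal of 4018, 1157, 3356 and 3827. At 1.0 mg/kg/day it was 686, 1039 and 1829. The groups overlapped, because the second vehicle array was below the third treated array. The log2 difference was -1.34 ± 0.66, which is 2.53-fold lower, and its 95% interval ran from -2.68 to 0.01. In exercised rats the Ucp3 signal was 2203, 5368, 5983 and 5955 with vehicle, and 1264, 102.0, 1536 and 205 at 1.0 mg/kg/day. All treated arrays were below all vehicle arrays, and the treated arrays themselves fell into a higher pair of 1264 and 1536 and a lower pair of 102.0 and 205. The log2 difference was -3.27 ± 0.61, which is 9.65-fold lower, and it ran from -3.84 without the third treated array to -2.59 without the second.

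**Figure D1:**
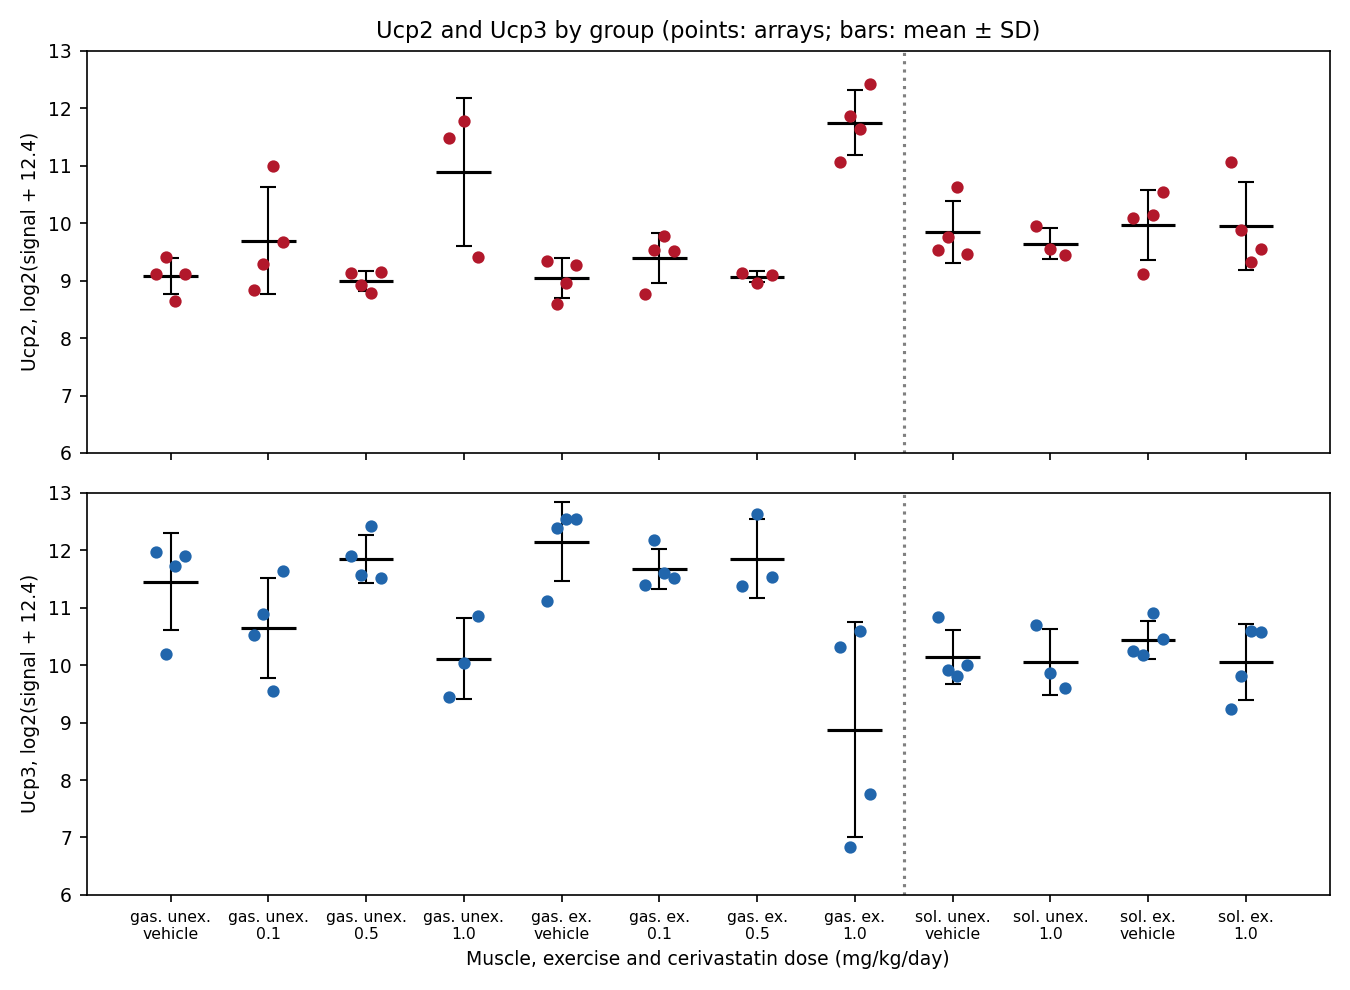
Ucp2 (top) and Ucp3 (bottom) on the log2(signal + 12.4) scale in each of the 45 arrays, by muscle (gas., gastrocnemius; sol., soleus), exercise (unex. or ex.) and cerivastatin dose in mg/kg/day; points are arrays and bars the group mean ± SD. In exercised gastrocnemius at 1.0 mg/kg/day all 4 Ucp2 points lie above, and all 4 Ucp3 points below, those of the exercised vehicle group.

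The second Ucp3 probe set, 1387681_at, followed the first over the 45 arrays, with a Pearson r of 0.93 and a Spearman rho of 0.92 (a description over arrays that share groups). Its signal in exercised gastrocnemius was 2571, 3780, 4239.5 and 3889 with vehicle and 1458, 156, 2019 and 309 at the high dose. The same pair of treated arrays was lowest on both probe sets. Its log2 difference was -2.49 ± 0.58 in exercised and -0.96 ± 0.62 in unexercised rats. On either probe set the drop was larger in exercised rats, but the vehicle mean was also higher in them. On the second probe set the vehicle means were 3620 exercised and 1935 unexercised, and the high-dose means 985 and 917. The gap between exercised and unexercised rats at 1.0 mg/kg/day was -1.23 ± 0.66 on the first and -0.49 ± 0.62 on the second. For Ucp2 it was 0.86 ± 0.44, all without a test. With 1 array left out, the Ucp2 gap ran from 0.12, without the third unexercised array, to 1.31, without the second. The Ucp3 gap on the first probe set ran from -1.80, without the third exercised array, to -0.55, without the second.

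At the lower doses neither gene was called. In unexercised gastrocnemius at 0.1 mg/kg/day, Ucp2 had signals of 444, 612, 2023 and 804, and 1 array, the third, stood far above the rest. Its log2 difference from vehicle was 0.62 ± 0.41 (adjusted p = 0.89), and 0.19 without that array. Ucp3 had signals of 1461, 1886, 735 and 3173 there, lowest in that same array, with a difference of -0.80 ± 0.61 (adjusted p = 0.89). In exercised rats at 0.1 mg/kg/day, Ucp2 had signals of 423, 729, 864 and 721 and a difference of 0.35 ± 0.41 (adjusted p = 1.00), and Ucp3 had signals of 2680, 4637, 3115 and 2930 and a difference of -0.47 ± 0.61 (adjusted p = 1.00). On the second Ucp3 probe set that last difference was -1.06 ± 0.58 (adjusted p = 1.00). The groups did not overlap there, but how many of all probe sets did the same was not counted.

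At 0.5 mg/kg/day, Ucp2 was as tight as in vehicle rats, at 551, 474, 428 and 552 unexercised and 548, 485 and 539 exercised. The log2 differences were -0.08 ± 0.41 and 0.02 ± 0.44. Ucp3 at that dose was 3806, 3038, 5488 and 2904 unexercised and 2661, 6358 and 2938 exercised. Its differences were 0.40 ± 0.61 and -0.30 ± 0.66, and all 4 adjusted p at this dose were 1.00. The 95% interval for Ucp2 in unexercised rats, from -0.91 to 0.75, leaves a change of under 2-fold in either direction possible. Its width comes from the spread shared by all gastrocnemius groups, the high-dose ones included. The log2 SD was 0.18 in this group and 0.32 in its vehicle group. For Ucp3 the interval is wider, from -0.84 to 1.65. In each of the 4 low-dose comparisons 0% of all probe sets were called by limma, with 593 to 957 of 21729 at an unadjusted p under 0.05, so an uncalled gene there says little of itself. These comparisons use the same vehicle arrays as the high-dose ones.

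Running by itself was not accompanied by a called change in either gene. The vehicle comparison uses only gastrocnemius vehicle arrays that also entered the choice of the pair. In vehicle gastrocnemius the difference between exercised and unexercised rats was -0.03 ± 0.41 for Ucp2 and 0.70 ± 0.61 for Ucp3 on the log2 scale (adjusted p = 1.00 for both). For Ucp3, 3 of 4 exercised arrays were above all 4 unexercised ones, on both probe sets, and the second probe set differed by 1.05 ± 0.58 (adjusted p = 1.00). At 0.1 mg/kg/day the differences were -0.30 ± 0.41 for Ucp2 and 1.03 ± 0.61 for Ucp3 (adjusted p = 0.98 for both), and at 0.5 mg/kg/day 0.07 ± 0.44 and 0.00 ± 0.66 (adjusted p = 1.00 for both). In these 3 comparisons 0% of probe sets were called, with 538 to 885 at an unadjusted p under 0.05. Pdk4, the kinase that shuts pyruvate dehydrogenase when muscle burns fat, had a mean signal of 24235 in exercised and 11071 in unexercised vehicle gastrocnemius, a log2 difference of 1.43 ± 0.58 (adjusted p = 1.00).

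In soleus neither gene was called at the high dose. The choice of the pair names no muscle, but the opposite movement was seen in gastrocnemius. Ucp2 in unexercised soleus was 729.6, 854, 1563 and 694 with vehicle and 974, 733 and 685 at 1.0 mg/kg/day, a log2 difference of -0.20 ± 0.40 with a 95% interval from -1.05 to 0.65 (adjusted p = 1.00). In exercised soleus it was 1076, 543, 1111 and 1474 with vehicle and 2121, 925, 625 and 739.6 at the high dose, a difference of -0.02 ± 0.37 with an interval from -0.80 to 0.77 (adjusted p = 1.00). The treated and vehicle arrays overlapped in both cases, and the highest value came from a single array, the first of the exercised high-dose group.

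Ucp3 in unexercised soleus was 1824, 958, 881 and 1008 with vehicle and 1658, 918 and 766 at 1.0 mg/kg/day, a log2 difference of -0.08 ± 0.35 with an interval from -0.83 to 0.66 (adjusted p = 1.00). In exercised soleus it was 1199, 1141, 1899 and 1392 with vehicle and 590.4, 889.7, 1535 and 1517 at the high dose, a difference of -0.39 ± 0.32 with an interval from -1.08 to 0.30 (adjusted p = 0.91). The array with the lowest Ucp3 was again the first of the exercised high-dose group, and without it the difference was -0.11. Exercise differences in soleus were 0.12 ± 0.37 for Ucp2 and 0.30 ± 0.32 for Ucp3 with vehicle, and 0.31 ± 0.40 and 0.00 ± 0.35 at the high dose (adjusted p = 1.00 for all 4). In the 4 comparisons within soleus 0% of probe sets were called, with 593 to 1156 at an unadjusted p under 0.05. Set side by side, the high-dose difference in soleus minus that in gastrocnemius was -2.72 ± 0.58 for Ucp2 and 2.89 ± 0.77 for Ucp3 in exercised rats, and -2.01 ± 0.62 and 1.25 ± 0.83 in unexercised rats, as a description with no test.

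**Figure D2:**
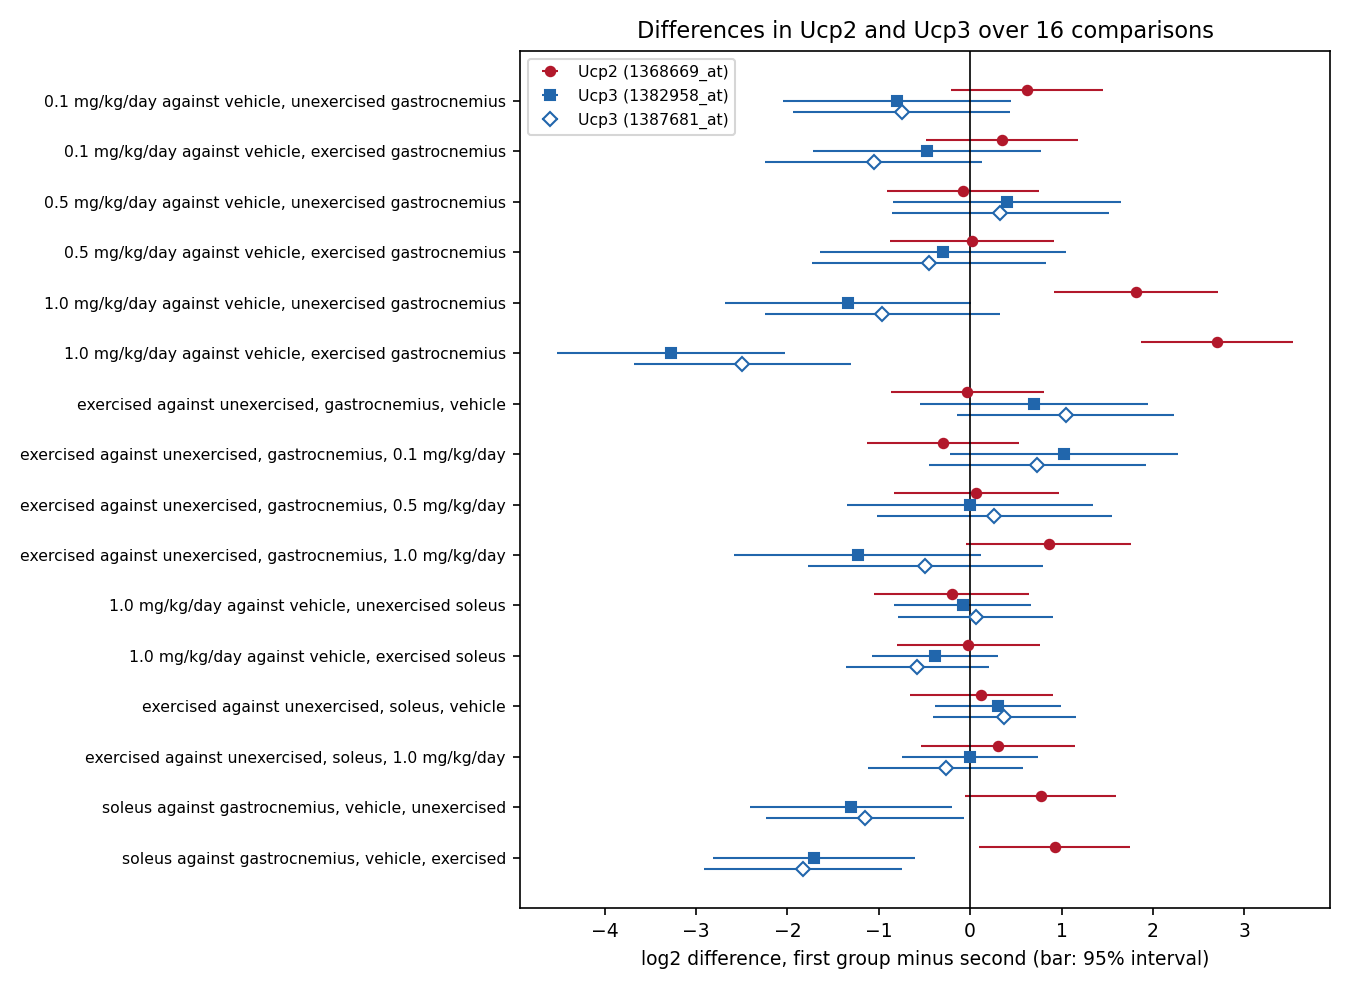
Log2 differences with 95% intervals for the Ucp2 probe set (red circles) and both Ucp3 probe sets (blue squares and open blue diamonds), over 16 comparisons named as first group against second. The points farthest from 0 are those of exercised gastrocnemius at 1.0 mg/kg/day, at 2.70 for Ucp2 and -3.27 for Ucp3, and the soleus dose and exercise intervals all include 0.

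Between the muscles of vehicle rats, Ucp3 was lower in soleus than in gastrocnemius, and Ucp2 had higher means there. In exercised vehicle rats the Ucp3 signal was 1141 to 1899 in soleus and 2203 to 5983 in gastrocnemius, with no overlap. The log2 difference was -1.71 ± 0.55 (adjusted p = 0.033), which is 3.27-fold lower, and on the second probe set -1.82 ± 0.54 (adjusted p = 0.019). Ucp2 differed by 0.92 ± 0.41 in the other direction (adjusted p = 0.13, or 0.043 where only the 2 groups were fitted), with 3 of 4 soleus arrays above all gastrocnemius arrays. In this comparison 13.2% of probe sets, or 2861, were called, and 1752 without the fourth gastrocnemius array. The Ucp3 call is fragile: it was lost in 6 of 8 fits that left out 1 array, with adjusted p from 0.060 to 0.094, without gastrocnemius array 2, 3 or 4 or without soleus array 1, 2 or 4.

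In unexercised vehicle rats neither gene was called, where 7.02% of probe sets, or 1526, were. That count was 808 without gastrocnemius array 2, 745 without gastrocnemius array 3, 747 without soleus array 1 and 857 without soleus array 4. Ucp3 differed by -1.31 ± 0.55 (adjusted p = 0.14) and Ucp2 by 0.77 ± 0.41 (adjusted p = 0.27). All 4 soleus arrays were above all 4 gastrocnemius arrays for Ucp2, and for Ucp3 the single low gastrocnemius array of 1157 overlapped the soleus range of 881 to 1824. Both comparisons use the gastrocnemius vehicle arrays that also entered the choice of the pair. They treat the arrays as separate animals, although the titles do not say whether both muscles came from the same rats. The RNA input was about 4 µg for gastrocnemius and 3 µg for soleus, so that input and muscle cannot be told apart. In exercised vehicle rats the fibre markers matched the labels, with 9 of 10 slow-fibre genes higher and 7 of 11 fast-fibre genes lower in soleus. Of all genes, 15.1% were called in that comparison. Tpm3, a slow-fibre tropomyosin, was higher by 5.61 ± 1.31 (adjusted p = 0.0035), and Pvalb, a calcium buffer of fast fibres, differed by -5.86 ± 1.42 (adjusted p = 0.0050). Among adipocyte markers, 3 of 7 were higher in soleus and 1 lower in these exercised rats. The unexercised comparison separated the muscles less, with 8.38% of all genes called. There Casq2 was the only slow-fibre gene called, higher by 2.91 ± 0.61 (adjusted p = 0.0030). The summed slow-fibre signal overlapped, at 118925 to 410744 in gastrocnemius and 399366 to 609879 in soleus. Pvalb differed by -5.26 ± 1.42 (adjusted p = 0.020), and Lipe was the only adipocyte marker called, lower in soleus.

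Ordered by mean log2 level, the 12 groups put Ucp2 highest in exercised gastrocnemius at 1.0 mg/kg/day (11.75 ± 0.56, SD, n = 4), followed by unexercised gastrocnemius at 1.0 mg/kg/day (10.89 ± 1.29, SD, n = 3). The 4 soleus groups and the unexercised 0.1 mg/kg/day gastrocnemius came next, between 9.97 and 9.64. The other 5 gastrocnemius groups were lowest, at or below 9.40. Ucp3 ran nearly the other way. Exercised vehicle gastrocnemius was highest (12.15 ± 0.69, SD, n = 4), the gastrocnemius groups at vehicle to 0.5 mg/kg/day spanned 12.15 to 10.65, the soleus groups 10.44 to 10.06, and unexercised and exercised gastrocnemius at 1.0 mg/kg/day stood at 10.11 ± 0.70 (SD, n = 3) and 8.88 ± 1.86 (SD, n = 4). For neither gene was the gap between any 2 neighbouring groups in the order larger than the larger SD of the pair. Ucp1, the brown fat member, was too dim to be tested, with signals of 5.9 to 163.4 over all arrays.

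Markers of other cells moved with Ucp2 in the same arrays. At 1.0 mg/kg/day 22 of 23 measured macrophage and myeloid genes were higher in exercised gastrocnemius and 21 of 23 in unexercised, with medians of 4.33 and 2.58 on the log2 scale against medians of 0.07 over all genes in both. Of all genes, 49.6% and 11.3% were called. Cd68, a lysosomal protein of macrophages, rose by 4.89 ± 0.69 in exercised (adjusted p = 1.4e-05) and by 3.37 ± 0.74 in unexercised rats (adjusted p = 0.013). The largest rises among exercised rats were those of the Fc receptor Fcgr2b, at 6.29 ± 0.67, Aif1, at 5.22 ± 0.57, and the signalling adaptor Tyrobp, at 5.07 ± 0.65. In unexercised rats they were Fcgr2b, Cd68 and the endotoxin receptor Cd14, at 3.17 ± 0.63.

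The summed macrophage signal was 10495 to 12846 in exercised vehicle gastrocnemius and 129101, 237249, 209591 and 288410 in the 4 high-dose arrays, which is the same order of arrays as for Ucp2. In unexercised rats it was 8725 to 27268 with vehicle and 158443, 174638 and 19324 at the high dose. The third high-dose array, whose Ucp2 lay in the vehicle range, thus also had a macrophage sum in the vehicle range. Without either of the other high-dose arrays, 0 of 23 macrophage genes passed the limma threshold in unexercised rats. Of them 20 and 21 had an unadjusted p under 0.05, and without the third array 22 passed. Of all probe sets, 5 were called without the first array, 2 without the second and 5823 without the third. With all arrays kept it was 2065. List counts without these arrays, here and below, follow that background and say little of the lists themselves. In soleus the macrophage sum was 14256 to 50443 with vehicle and 26721 to 60475 at the high dose. Other immune markers were higher as well: 3 of 3 neutrophil genes, with a median of 4.27, and 3 of 4 lymphocyte genes, with a median of 1.59, in exercised gastrocnemius, and 2 of 3 and 1 of 4 in unexercised. In unexercised rats 0 of these 7 passed by limma without the first or without the second treated array, with 3 at an unadjusted p under 0.05 either way. The share of the Ucp2 difference that belongs to these cells was not tested.

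Fat markers, and markers of other cells, were high with Ucp2 in some other arrays. The summed signal of 7 adipocyte genes was 135131 in the third unexercised gastrocnemius array at 0.1 mg/kg/day, whose Ucp2 was 2023, and 7597 to 14223 in the other 3. The same array had a macrophage sum of 64730, where the other 3 had 12680 to 13697. Within that group the summed signal of 6 endothelial genes ran from 3873 to 26670, and that of 11 fast-fibre genes from 263680 to 730983. The endothelial sum also spread in exercised high-dose soleus, from 6913 to 19067. The part of each list in these Ucp2 values was not tested. In soleus the 4 highest Ucp2 values, 2121, 1563, 1474 and 1111, came from the 4 arrays with the highest adipocyte sums, which were 112392, 105469, 61295 and 65671. At the high dose in gastrocnemius the adipocyte sum was 11487 to 24113 in exercised and 13401 to 35908 in unexercised rats, and 0 of 7 adipocyte genes were higher in either by limma (2 in exercised rats without the first treated array). Of the list, 2 genes of fat breakdown fell in exercised rats: Lipe, hormone-sensitive lipase, fell by 1.44 ± 0.24 (adjusted p = 5e-05) and the triglyceride lipase Pnpla2 fell by 1.30 ± 0.41 (adjusted p = 0.013). In unexercised rats Lipe alone fell by 1.22 ± 0.26 (adjusted p = 0.012). Adipoq, the fat hormone adiponectin, differed by -0.61 ± 1.40 (adjusted p = 0.76) in exercised and 0.84 ± 1.51 (adjusted p = 0.76) in unexercised rats.

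**Figure D3:**
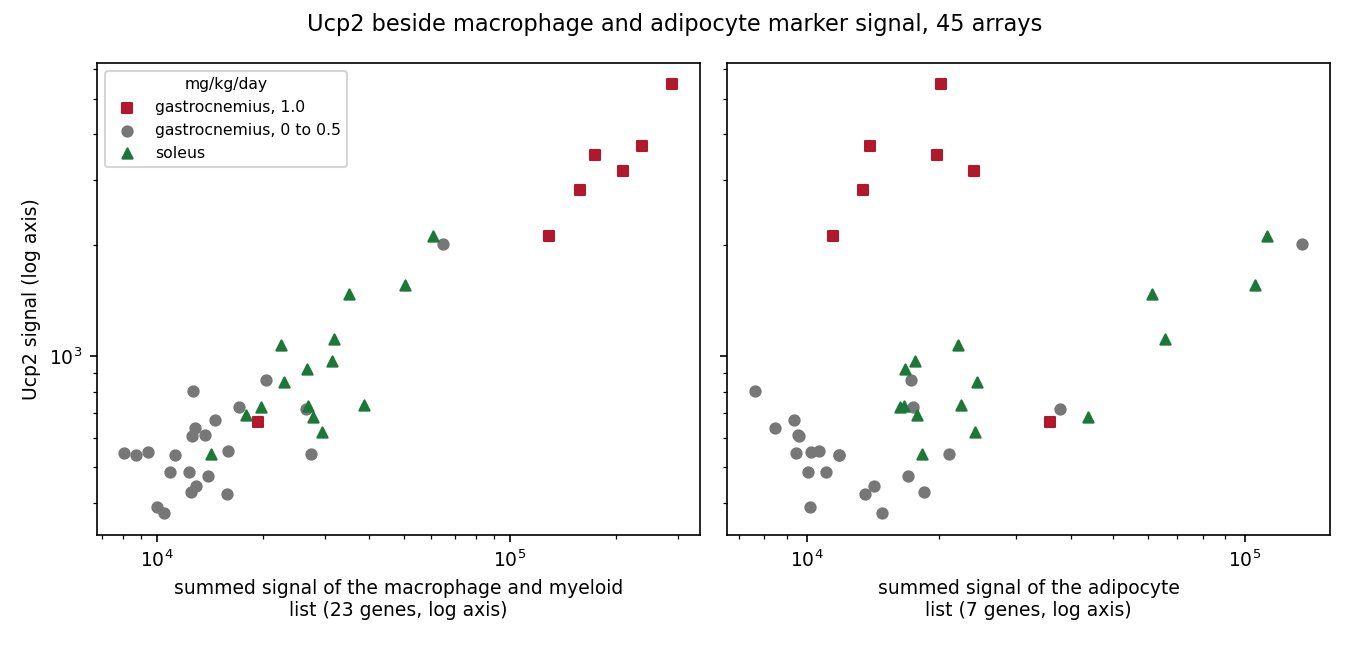
Ucp2 signal against the summed signal of 23 macrophage and myeloid genes (left) and of 7 adipocyte genes (right), 1 point per array, on log axes; red squares are gastrocnemius at 1.0 mg/kg/day, grey circles gastrocnemius at lower doses and green triangles soleus. Of the 7 red squares, 6 have macrophage sums of 129101 or more, and the remaining one, at 19324, has a Ucp2 signal of 665.

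Across arrays other than the high-dose gastrocnemius ones, 10 relations were computed on the log2 scale, with Benjamini-Hochberg adjustment over the 10. The gastrocnemius vehicle arrays among them also entered the choice of the pair. The permutations shuffled arrays freely across groups, although arrays of a group share their treatment. With group means subtracted, the gastrocnemius relations of Ucp3 with fatty acid oxidation (r = 0.35) and of Ucp2 with Ucp3 (r = -0.43) no longer passed. In the 23 gastrocnemius arrays at 0 to 0.5 mg/kg/day, Ucp2 and the macrophage list had a Pearson r of 0.76 (permutation p = 0.0010, adjusted 0.0050) and a Spearman rho of 0.45 (permutation p = 0.033, adjusted 0.083). Without the 2 arrays farthest from the list's median, r was 0.35 (permutation p = 0.12), so that the relation rested on them. One of those arrays was the third at 0.1 mg/kg/day, without which r was 0.43. Ucp2 with the adipocyte list gave r = 0.63 (permutation p = 0.0074, adjusted 0.013) and rho = 0.15 (permutation p = 0.49, adjusted 0.61), and r = 0.09 without its 2 farthest arrays.

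In the 15 soleus arrays, Ucp2 and the adipocyte list had r = 0.80 (permutation p = 0.00051, adjusted 0.0050) and rho = 0.64 (permutation p = 0.012, adjusted 0.062), and r = 0.59 remained without the 2 farthest arrays (permutation p = 0.034). Ucp2 and the macrophage list had r = 0.70 (permutation p = 0.0035, adjusted 0.012) and rho = 0.56 (permutation p = 0.033, adjusted 0.083) there, and r = 0.41 without the 2 farthest (permutation p = 0.17). Ucp3 and the fatty acid oxidation list had r = 0.68 (permutation p = 0.0060, adjusted 0.013) and rho = 0.65 (permutation p = 0.011, adjusted 0.062) in soleus, with r = 0.51 without the 2 farthest (permutation p = 0.079). In gastrocnemius the same relation had r = 0.50 (permutation p = 0.016, adjusted 0.019) and rho = 0.39 (permutation p = 0.066, adjusted 0.13), and r = 0.29 without the 2 farthest.

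Ucp3 and the slow-fibre list had no called relation in gastrocnemius, with r = -0.12 (permutation p = 0.58, adjusted 0.58) and rho = -0.08 (permutation p = 0.73, adjusted 0.73), although the summed slow-fibre signal there ranged from 3792 to 420022 within the exercised vehicle group alone. In soleus r was 0.61 (permutation p = 0.012, adjusted 0.017) and rho 0.47 (permutation p = 0.080, adjusted 0.13), but 0.26 without the 2 farthest arrays. Ucp2 and Ucp3 themselves had r = -0.57 (permutation p = 0.0079, adjusted 0.013) and rho = -0.34 (permutation p = 0.12, adjusted 0.17) in the gastrocnemius arrays below the high dose, and r = -0.15 without the 2 farthest arrays. In soleus they had r = -0.30 (permutation p = 0.28, adjusted 0.32) and rho = -0.13 (permutation p = 0.64, adjusted 0.71). The opposite ordering of the 2 genes below the high dose therefore rested on those few arrays.

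Other mitochondrial carriers were called in both directions at the high dose, about as often as genes in general. Of 19 measured carrier genes other than the pair, 5 rose and 5 fell in exercised gastrocnemius, with a median of -0.16, so that 10 of 19 were called where 49.6% of all genes were, a share near the background. The counts were also 5 and 5 with any 1 array of either group left out. Slc25a13, an aspartate and glutamate carrier, rose by 2.85 ± 0.48 (adjusted p = 6.4e-05), Slc25a24, an ATP-Mg and phosphate carrier, by 2.84 ± 0.47 (adjusted p = 5.7e-05), and Slc25a5, the adenine nucleotide translocase of proliferating cells, by 2.83 ± 0.36 (adjusted p = 7.1e-06). Slc25a12, the muscle form of the aspartate and glutamate carrier, fell by 2.42 ± 0.54 (adjusted p = 0.00083), Slc25a11, the oxoglutarate carrier, fell by 1.68 ± 0.43 (adjusted p = 0.0026), and Slc25a4, the translocase form of muscle and heart, fell by 1.60 ± 0.37 (adjusted p = 0.0010). Among these named genes, Slc25a13 with Slc25a12 and Slc25a5 with Slc25a4 are pairs of like function in which 1 member rose and the other fell. These pairs were not set in advance. With calls in both directions near the background share, they are a description and show no pattern shared with Ucp2 and Ucp3. Slc25a20, the acylcarnitine carrier, differed by -0.29 ± 0.43 (adjusted p = 0.62).

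In unexercised rats 3 of 19 carriers rose and 1 fell, where 11.3% of all genes were called. Then 0 of 19 passed the limma threshold without the first or without the second treated array (5 and 4 at an unadjusted p under 0.05). Without the third treated array 5 rose and 5 fell, and without vehicle array 1, 2 or 3 there was 1 rise and 1 fall. Of all probe sets, 5 were called without the first treated array, 2 without the second and 5823 without the third. Without vehicle array 1, 2 or 3 it was 823, 741 and 733. Slc25a24 rose by 1.78 ± 0.51 (adjusted p = 0.032), Slc25a5 by 1.73 ± 0.39 (adjusted p = 0.014) and the citrate carrier Slc25a1 by 1.48 ± 0.45 (adjusted p = 0.041), while Slc25a25, another ATP-Mg and phosphate carrier, fell by 2.42 ± 0.56 (adjusted p = 0.015). Soleus against gastrocnemius in exercised vehicle rats had 4 of 19 carriers higher and 1 lower, where 15.1% of all genes were called. Slc25a13 was higher by 2.05 ± 0.42 (adjusted p = 0.00099), Slc25a20 by 1.45 ± 0.41 (adjusted p = 0.015) and Slc25a5 by 1.39 ± 0.32 (adjusted p = 0.0034), and Slc25a30 was lower, at -1.05 ± 0.33 (adjusted p = 0.030). In unexercised vehicle rats 3 were higher (Slc25a13, Slc25a5 and the ornithine carrier Slc25a15) and 1 lower (Slc25a25, at -2.08 ± 0.50, adjusted p = 0.0091). There 8.38% of all genes were called.

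**Figure D4:**
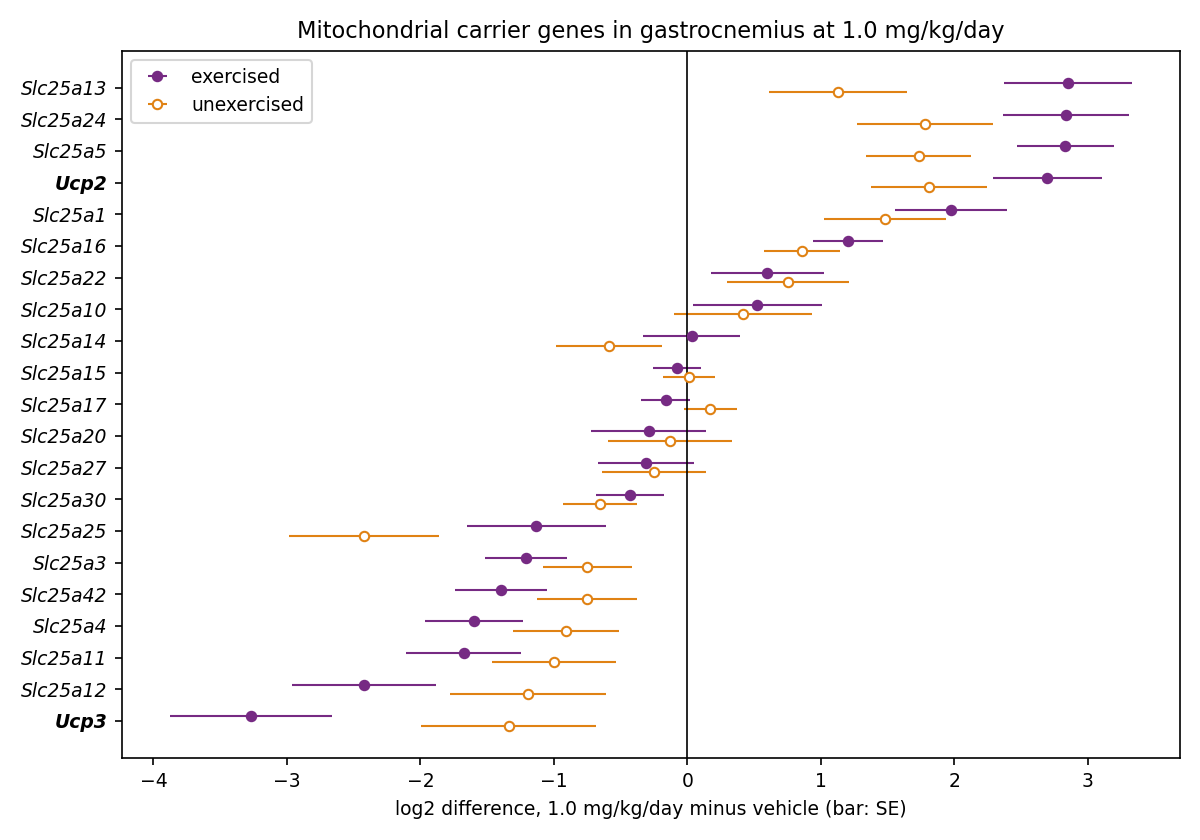
Log2 difference of 1.0 mg/kg/day from vehicle in gastrocnemius for 19 mitochondrial carrier genes and, in bold, Ucp2 and Ucp3, ordered by the exercised difference; filled points are exercised, open points unexercised rats, and bars are SE. Ucp2 stands beside Slc25a5 (2.83) near the top and Ucp3 (-3.27) at the bottom.

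Genes of fatty acid oxidation and known PPAR targets were more often lower than higher at the high dose in exercised rats. Of 28 measured, 15 fell and 4 rose, with a median of -1.04. Among all genes 49.6% were called, with 2558 of 11684 lower, and the median was 0.07. Acsl1, which activates long-chain fatty acids, fell by 2.25 ± 0.59 (adjusted p = 0.0030), Plin5, a lipid-droplet coat protein of oxidative tissue, fell by 2.18 ± 0.72 (adjusted p = 0.015), and Cpt1b, the muscle enzyme that passes fatty acids to mitochondria, fell by 1.82 ± 0.55 (adjusted p = 0.0096). The liver form Cpt1a rose by 1.97 ± 0.51 (adjusted p = 0.0029), as did the lipase inhibitor Angptl4 by 2.73 ± 1.04 (adjusted p = 0.035) and the droplet coat Plin2 by 1.56 ± 0.32 (adjusted p = 0.00035). Pdk4 differed by -0.76 ± 0.58 (adjusted p = 0.30). The count of 15 rested on the pair of treated arrays in which Ucp3 was lowest, since 3 fell without the second array and 3 without the fourth, and 4 fell without the second vehicle array. In unexercised rats 0 of 28 passed the limma threshold, where 11.3% of all genes were called, and 5 had an unadjusted p under 0.05. Without the third treated array 3 rose and 3 fell, where 5823 of all probe sets were called. With all arrays kept, Cpt1b differed by -0.37 ± 0.60 (adjusted p = 0.73) and Angptl4 by 2.42 ± 1.12 (adjusted p = 0.16).

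Of 20 measured regulators of uncoupling protein transcription, 10 fell and 2 rose in exercised rats, with a median of -0.72, and with 1 treated array left out 9 or 10 fell. These are 12 of 20 called, beside 49.6% of all genes, and in unexercised rats 3 of 20 were called, beside 11.3%. Prkaa2, a catalytic subunit of AMP-activated kinase, fell by 3.47 ± 0.71 (adjusted p = 0.00036), the retinoid receptor Rxrg fell by 3.07 ± 0.52 (adjusted p = 6.2e-05), the lipid-synthesis factor Srebf1 fell by 2.06 ± 0.41 (adjusted p = 0.00027) and the coactivator Ppargc1a fell by 2.02 ± 0.55 (adjusted p = 0.0041). Srebf2, the factor of cholesterol synthesis genes, rose by 0.89 ± 0.23 (adjusted p = 0.0026) and the other kinase subunit Prkaa1 by 0.40 ± 0.16 (adjusted p = 0.043). Ppard, the PPAR most abundant in muscle, differed by -0.41 ± 0.26 (adjusted p = 0.21), and Ppara was not tested. In unexercised rats Srebf1 fell by 1.63 ± 0.44 (adjusted p = 0.025), and of the thyroid hormone receptors Thrb fell by 1.19 ± 0.25 (adjusted p = 0.012) and Thra fell by 1.04 ± 0.27 (adjusted p = 0.022). In unexercised rats 0 of 20 regulators passed by limma without the first or without the second treated array (6 and 5 at an unadjusted p under 0.05). Without the third 10 fell and 2 rose, and 1 fell without the second vehicle array. Of all probe sets, 5 were called without the first treated array, 2 without the second and 5823 without the third. Without the second vehicle array it was 741. Between muscles, Myod1, the fast-fibre-biased myogenic factor, was lower in soleus, at -2.82 ± 0.54 (adjusted p = 0.00049) in exercised and -2.62 ± 0.54 (adjusted p = 0.0026) in unexercised vehicle rats, and Rxrg at -1.42 ± 0.46 (adjusted p = 0.036) in exercised ones. In exercised rats 2 regulators were higher in soleus, the mitochondrial deacetylase Sirt3 by 0.94 ± 0.25 (adjusted p = 0.011) and Prkaa1 by 0.64 ± 0.15 (adjusted p = 0.0029). Of all genes, 15.1% were called between muscles in exercised vehicle rats.

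Fast-fibre and mitochondrial markers moved with Ucp3. At the high dose in exercised rats 10 of 11 fast-fibre genes and 11 of 13 mitochondrial content genes fell, where 49.6% of all genes were called in either direction, and 0 of 10 slow-fibre genes passed by limma, with 0 at an unadjusted p under 0.05. In unexercised rats 5 of 11 fast-fibre genes fell, where 11.3% of all genes were called, and 0 of 13 mitochondrial content genes passed by limma, with 2 at an unadjusted p under 0.05. Without the third treated array these counts were 10 and 5, and without the first or without the second 0 and 0. Without vehicle array 2 or 3 they were 3 and 0. Of all probe sets, 5823 were called without the third treated array, 5 without the first and 2 without the second. Without vehicle array 2 or 3 it was 741 and 733. In exercised rats the summed fast-fibre signal was 676103 to 801276 with vehicle and 313920, 152174, 303914 and 148119 at the high dose. The summed mitochondrial signal was 284277 to 397687 and 208504, 103542, 199861 and 104750. The summed slow-fibre signal at the high dose was 209625, 4890, 168358 and 12692, all inside the vehicle range of 3792 to 420022. The second and the fourth of the treated arrays were thus the lowest on all of these and on Ucp3. In the high-dose unexercised group, the third array had the highest fast-fibre sum, 579363 against 263942 and 196083, and the highest Ucp3. The part of these markers in the Ucp3 difference was not tested. Of 11 mitochondrial antioxidant genes, 4 fell and 1, Gpx1, rose in exercised rats, a share no higher than that of all genes, and 1 fell without the second treated array and 2 without the fourth. The rise of Gpx1 no longer passed without treated array 3 or 4 or without vehicle array 1, 3 or 4.

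The genes whose log2 signal was most like that of Ucp2 over all 45 arrays, by Pearson r, were Arpc5 (0.94), Apbb1ip (0.94), Rhog (0.94), Arpc3 (0.94) and Ctsa (0.93). Arpc3 and Arpc5 are subunits of the actin-branching Arp2/3 complex, Rhog is a small GTPase and Ctsa a lysosomal protease. For Ucp3 they were Pcmtd2 (0.89), Aldoa (0.88), Ankrd9 (0.88), Eno3 (0.88) and Fhip2b (0.87), of which Aldoa and Eno3 are muscle glycolytic enzymes. These arrays include the high-dose groups that chose the pair. Over the 23 gastrocnemius arrays below the high dose, the list for Ucp2 had no gene in common with the first: Snrpe (0.91), Hs2st1 (0.90), RT1-Da (0.88), Rasal2 (0.88) and Pdcd4 (0.88). For Ucp3 it was Gfm2 (0.89), Pdk4 (0.82), Pcmtd2 (0.78), the skeletal actin Acta1 (0.77) and Cox7b (0.76), a subunit of cytochrome c oxidase. Each ranking was over 11683 genes and is a description, since the arrays of a group share their treatment.

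The measured neighbours of the pair did not share 1 direction. In chromosome order they were Pgm2l1, P4ha3, Ppme1 and C2cd3 before Ucp3, and Coa4 after Ucp2. In exercised gastrocnemius at 1.0 mg/kg/day, Pgm2l1, a sugar phosphate mutase, fell by 1.58 ± 0.28 (adjusted p = 9.9e-05), while P4ha3, a collagen prolyl hydroxylase subunit, rose by 2.80 ± 0.65 (adjusted p = 0.0012) and Coa4, an assembly factor of cytochrome oxidase, by 0.81 ± 0.19 (adjusted p = 0.0013). Ppme1, at -0.13 ± 0.14 (adjusted p = 0.48), and C2cd3, at -0.13 ± 0.45 (adjusted p = 0.84), did not pass. Of all genes, 49.6% were called in that comparison, so calls among so few neighbours are a description and show no trait of the locus. In unexercised rats, where 11.3% of all genes were called, Pgm2l1 alone of the 5 passed, and it fell by 1.10 ± 0.30 (adjusted p = 0.028). It was also lower in soleus than in gastrocnemius, at -1.90 ± 0.36 (adjusted p = 0.00048) in exercised and -1.64 ± 0.36 (adjusted p = 0.0049) in unexercised vehicle rats. Of all genes, 15.1% and 8.38% were called in these 2 comparisons.

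**Figure D5:**
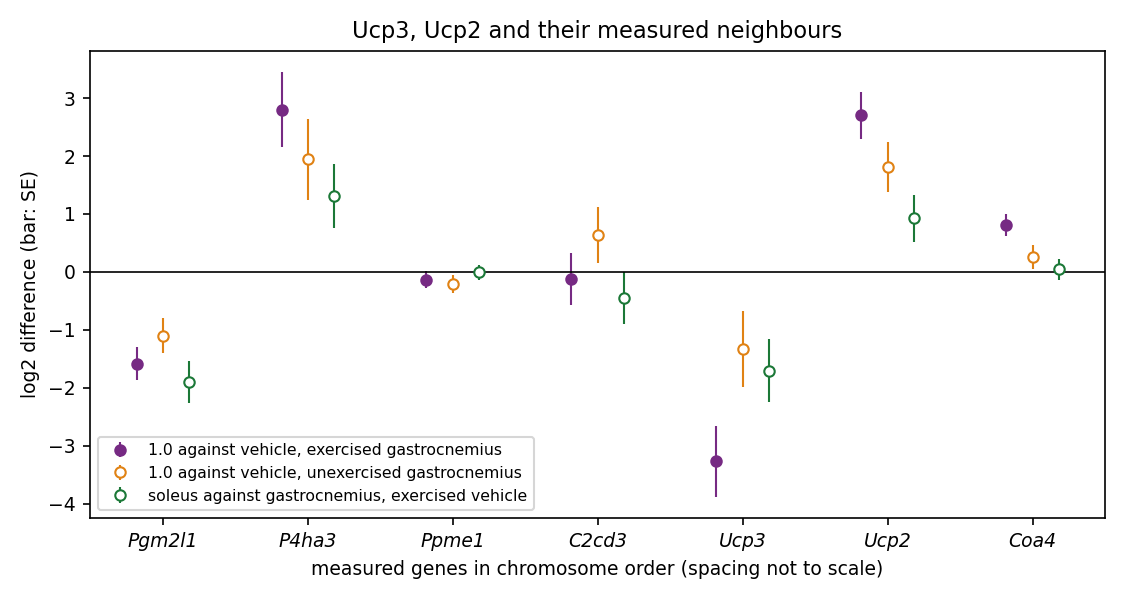
Log2 difference with SE of Ucp3, Ucp2 and the 5 tested genes around them, in chromosome order with spacing not to scale, at 1.0 mg/kg/day against vehicle in exercised (filled purple) and unexercised (open orange) gastrocnemius, and in soleus against gastrocnemius of exercised vehicle rats (open green). In exercised rats Pgm2l1 (-1.58) and Ucp3 (-3.27) lie below 0 and P4ha3 (2.80) and Ucp2 (2.70) above it, with Ppme1 and C2cd3 (both -0.13) between.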

How the data were processed

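Total RNA of gastrocnemius and soleus was measured on 45 single-channel Affymetrix rat arrays. What the authors deposited is an intensity on a linear scale for each probe set; the submitters' processing notes name MAS5, without a version or scaling target. Trimmed array means lay between 599.2 and 600.0 and medians between 134.7 and 175.9, so the arrays were used as the authors scaled them. The number of arrays limits the precision. Of 31099 probe sets 57 controls were left out, and gene symbols came from the platform annotation, which gave 1 symbol to 20826 probe sets, several to 436 and none to 9780.

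Values were analysed as log2(value + 12.4), the offset being the 10th percentile of all values, so fold changes are on that scale and understate changes of dim genes. The test kept probe sets whose mean reached the 30th percentile (21729, for 11684 genes, each gene by its probe set of highest mean). Group means were fitted with limma 3.58.1 in R 4.3.3 (lmFit, contrasts.fit, eBayes with a mean-dependent prior), on 30 gastrocnemius arrays, 15 soleus arrays or all 45 between muscles, and adjusted by Benjamini-Hochberg within each comparison over all probe sets. The fit was tested on simulated data. Groups came from the sample titles, and a soleus title that does not mention exercise was taken as unexercised. In the main fits replicate numbers were not used to pair arrays, since the titles do not say whether they pair animals. Of 18 comparisons, 13 were tested for the pair.

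The members and the 12 gene lists (179 symbols) were chosen with earlier results of these data known. Named genes were the listed genes with up to 3 largest rises and falls past the threshold, a fixed set of carrier, PPAR and marker genes, the 5 genes most like each member, and tested neighbours; list counts without single arrays were added after seeing the data. RefSeq promoter windows (GRCr8) matched both members; array coordinates were not used here.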

Additional observations from a re-analysis of the deposited data

Results flagged for a closer look

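Both results that stood apart were single vehicle arrays of gastrocnemius with low Ucp3. In unexercised vehicle rats, the second array had a Ucp3 signal of 1157 where the other 3 had 3356 to 4018, a gap of 0.855 of the group's range, above Dixon's 95% critical value for 4 samples. In exercised vehicle rats, the first array had 2203 where the others had 5368 to 5983, a gap of 0.891 of the range. Of 27 group tests over the 3 probe sets, chance flags about 1 in 20. Without the low array, the high-dose Ucp3 difference in unexercised rats was -1.76, and the difference between soleus and gastrocnemius was -1.73 in unexercised and -2.05 in exercised rats.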

How the results depend on the processing

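Over another offset, no filter, median or quantile centring, no prior trend, fits on fewer or on all 45 arrays, and the other Ucp3 probe set or the mean of both, the high-dose differences in gastrocnemius kept their direction. Differences close to 0 changed sign, with no call at any setting. For Ucp3, exercised against unexercised, these were 7e-04 in soleus at 1.0 mg/kg/day with an offset of 50 and, in gastrocnemius at 0.5 mg/kg/day, 0.0686 with median centring, 0.26 on the other probe set, 0.13 on their mean and 0.0097 with the replicate block. For the high dose in soleus they were 0.012 for Ucp2 in exercised rats with median centring and 0.061 for Ucp3 in unexercised rats on the other probe set. Ucp2 between muscles in exercised rats was 0.92 and passed (adjusted p = 0.043) where only those groups were fitted. With group means subtracted, the gastrocnemius correlations of Ucp3 with fatty acid oxidation (0.35) and of Ucp2 with Ucp3 (-0.43) no longer passed. The replicate block changed no call of Ucp2 or Ucp3, and moved the count called at 0.5 mg/kg/day in exercised gastrocnemius from 0 to 2. Around the group means, same-numbered arrays of other groups in the same muscle had a mean correlation of 0.007. Same-numbered arrays of the same treatment in the other muscle had 0.006, over 15 pairs from -0.34 to 0.22. These values gave no sign that the numbers pair arrays, but they do not settle whether animals were shared. The count called at 1.0 mg/kg/day in unexercised gastrocnemius, 2065, became 0 with only those groups fitted, 3350 with all 45 arrays, and 2 to 5823 with 1 array left out.

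With 1 array left out in turn, these differences changed sign, lost a call or moved beyond the spread at least once. For 0.5 mg/kg/day against vehicle, unexercised gastrocnemius, they ran from -0.22 to 0.036 for Ucp2 and from -0.015 to 0.58 for Ucp3. For 0.5 mg/kg/day against vehicle, exercised gastrocnemius, they ran from -0.13 to 0.12 for Ucp2. For exercised against unexercised, gastrocnemius, vehicle, they ran from -0.17 to 0.12 for Ucp2. For exercised against unexercised, gastrocnemius, 0.1 mg/kg/day, they ran from -0.59 to 0.13 for Ucp2. For exercised against unexercised, gastrocnemius, 0.5 mg/kg/day, they ran from -0.0032 to 0.12 for Ucp2 and from -0.40 to 0.23 for Ucp3. For 1.0 mg/kg/day against vehicle, unexercised soleus, they ran from -0.35 to 0.059 for Ucp2 and from -0.41 to 0.15 for Ucp3. For 1.0 mg/kg/day against vehicle, exercised soleus, they ran from -0.39 to 0.19 for Ucp2. For exercised against unexercised, soleus, vehicle, they ran from -0.065 to 0.41 for Ucp2. For exercised against unexercised, soleus, 1.0 mg/kg/day, they ran from -0.064 to 0.52 for Ucp2 and from -0.23 to 0.32 for Ucp3. For soleus against gastrocnemius, vehicle, exercised, they ran from -2.05 to -1.57 for Ucp3. For soleus minus gastrocnemius at the high dose, unexercised, they ran from -2.75 to -1.56 for Ucp2. Correlations in gastrocnemius that lost the threshold or changed sign ran from 0.43 to 0.80 for Ucp2 with the macrophage and myeloid list, 0.22 to 0.69 for Ucp2 with the adipocyte list, 0.36 to 0.57 for Ucp3 with the fatty acid oxidation and PPAR targets list, -0.18 to 0.013 for Ucp3 with the slow fibre list, -0.66 to -0.23 for Ucp2 with Ucp3. Correlations in soleus that lost the threshold or changed sign ran from 0.55 to 0.79 for Ucp2 with the macrophage and myeloid list, 0.57 to 0.73 for Ucp3 with the fatty acid oxidation and PPAR targets list, 0.39 to 0.67 for Ucp3 with the slow fibre list, -0.40 to 0.045 for Ucp2 with Ucp3.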
